A study of Mus musculus with 6 samples.

Results

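The liver builds triacylglycerol (TAG) in a short series of enzymatic steps and exports part of it in very-low-density lipoprotein (VLDL). The transcripts of 9 genes of this route were measured in livers of mice with diet-induced insulin resistance (IR). They are Gpam, Agpat2, Lpin1, Lpin2, Dgat1, Dgat2, Mogat1, Mttp and Tm6sf2, found by gene name in a count table of 54532 genes. All 9 were among the 13377 genes with enough reads to be tested. The mice were male C57BL/6J, given a high-fat diet (HFD) for 6 weeks from 8 weeks of age and fasted for 16 h. In the IR insulin group, 3 mice received insulin at 0.75 units per kg body weight by intraperitoneal injection, and in the IR vehicle group 3 mice received bovine serum albumin (BSA), the vehicle. Livers were taken 6 h later and each library came from 1 mouse. Every mouse carried the diet and the fast, so the comparison is of insulin with its vehicle within the IR state, and chow-fed mice were not analysed here.

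In hepatocytes, glycerol 3-phosphate is acylated at the mitochondrial outer membrane and the endoplasmic reticulum, dephosphorylated to diacylglycerol and acylated once more to TAG. TAG is either stored in lipid droplets or loaded onto apolipoprotein B in the endoplasmic reticulum lumen, and in healthy liver insulin is known to favour storage and to restrain VLDL output. The acyltransferases Gpam and Agpat2 act first, the lipins form diacylglycerol, the Dgat enzymes make TAG, and Mttp and Tm6sf2 serve the loading of VLDL.

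No difference between IR insulin and IR vehicle passed a test for any of the 9 genes. The study's methods score a gene at a log2 fold change of 0.35 or more in size and an unadjusted p under 0.05, and 0 of the 9 met both, where 2.86% of all genes tested did (edgeR quasi-likelihood test). At an adjusted p under 0.05, 0 of the 9 and 0% of all genes passed, and the smallest adjusted p among the 9 was 0.852. At an unadjusted p under 0.05 alone, the count was 0 of 9 by edgeR, beside 2.86% of all genes, and 0 of 9 by DESeq2, beside 507 of 13377 genes. The values of the groups overlapped for all 9 genes, where they did not overlap for 12.3% of all genes. Of the 9 log2 fold changes, 3 were above and 6 below zero, with a median of −0.088, beside a median of −0.017 over all genes tested. The 9 genes also gave 0 calls at these criteria under the alternatives that follow, each with its share of all genes. That share was 3.79% with DESeq2, 3% with RLE factors, 2.61% with upper-quartile factors, 3.22% without the filter on low counts, 1.59% with voom and sample weights and 2.40% with a replicate block. Leaving out vehicle replicate 1 gave 9.81% and leaving out vehicle replicate 3 gave 6.51%, while leaving out insulin replicates 1, 2 and 3 in turn gave 0.727%, 1.05% and 0.875%. With vehicle replicate 1 as the only vehicle library it was 2.13%. The 3 fits in which 1 of the 9 passed are given with Lpin2 and Dgat1.

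The spread between libraries limited how much could be seen, and it was wider in the vehicle group for most genes. With 1 library per mouse, differences between mice and differences between library preparations cannot be told apart. Library totals ran from 18449986 to 21827619 counts, and levels below are CPM (read counts scaled to a common library size, with TMM factors), as mean ± SD over 3 mice. IR vehicle replicates 2 and 3 stood apart from the insulin libraries and from each other. The correlation of log2 CPM across genes was 0.878 between them, against at least 0.98 between insulin libraries. Their highest correlations with an insulin library were 0.912 and 0.954. Vehicle replicate 1 reached 0.988 with an insulin library, and its lowest value within its own group was 0.921. In IR vehicle replicate 2 the deviation of a gene from the other libraries followed its GC content (Spearman's rho −0.666 across 13367 genes, which are not independent replicates). That library had a count for 16470 genes, against 18389 to 18874 in the other libraries. Its TMM factor was 0.8291, against 0.9711 to 1.094. The coefficient of variation was larger in the vehicle than in the insulin group for 8 of the 9 genes, and for 85.1% of all genes. Its median over the 9 genes was 35.4% in IR vehicle and 13.4% in IR insulin, against 36.2% and 12.8% over all genes. Hepatocyte markers (Alb, Apoa1, Ttr, Cps1 and Cyp2e1) were abundant in every library, with summed levels from 59232 to 165805 CPM. In bulk tissue, fewer cells of a type and less RNA per cell cannot be told apart.

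**Figure D1:**
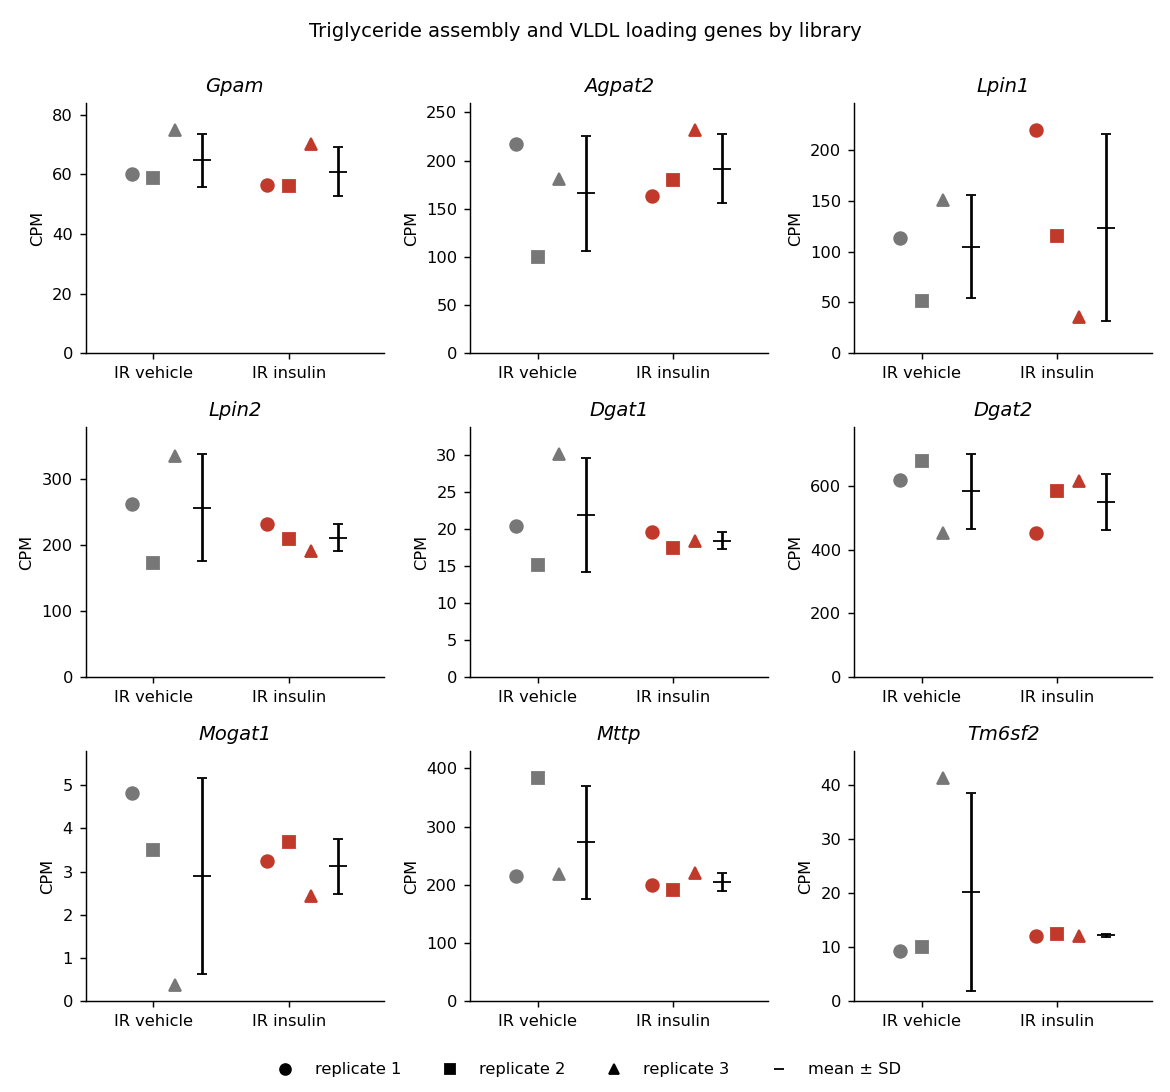
Level of each of the 9 genes (y axis, CPM, starting at 0) in each library, with IR vehicle in grey and IR insulin in red, marker shapes for replicates 1 to 3, and a bar for the mean ± SD of 3 mice. The groups overlap in every panel, and the wide vehicle bars come from replicate 2 for Mttp and Agpat2 and from replicate 3 for Tm6sf2 and Mogat1.

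Per kilobase of exon, Dgat2 was the highest of the 9 genes. It stood at 189 ± 38.1 CPM per kb in IR vehicle and 178 ± 28.0 in IR insulin (SD, n = 3), above 97.9% of the genes tested. Agpat2 followed at 77.9 ± 28.1 and 90.0 ± 16.9 CPM per kb, and Mttp at 43.9 ± 15.6 and 32.8 ± 2.50. Lpin2 was at 21 ± 6.68 and 17.3 ± 1.68 CPM per kb and Lpin1 at 10.9 ± 5.22 and 12.8 ± 9.54, so the lipins overlapped within their spread in IR insulin. Gpam (9.71 ± 1.34 and 9.14 ± 1.23), Tm6sf2 (10.7 ± 9.63 and 6.41 ± 0.130) and Dgat1 (7.16 ± 2.51 and 6.04 ± 0.372 CPM per kb) followed closely, and in IR vehicle these 3 did not differ beyond their spread. Mogat1 was lowest, at 1.86 ± 1.46 and 2.0 ± 0.402 CPM per kb, under the median tested gene. With the length of the longest transcript in place of all exons, Gpam moved below Tm6sf2 and Dgat1 (means over 6 libraries of 10.2, 11.2 and 10.7 CPM per kb), and no other neighbours changed places.

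Gpam encodes the mitochondrial glycerol-3-phosphate acyltransferase, which makes lysophosphatidic acid and commits acyl chains to glycerolipid (chromosome 19, 55067268 to 55127238, minus strand, build 38). Its levels were 60.2, 58.9 and 75.0 CPM in vehicle replicates 1 to 3 and 56.4, 56.0 and 70.3 CPM in insulin replicates 1 to 3. Replicate 3 was the highest of each group, and Gpam was the steadiest of the 9 genes in IR vehicle, with a coefficient of variation of 13.8%. Its log2 fold change was −0.09 ± 0.22 (SE; unadjusted p 0.700, adjusted p 0.924, edgeR). The 95% interval of the fold ran from 0.662 to 1.34. Without vehicle replicate 3 the log2 fold change was 0.031.

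Agpat2 encodes the acyltransferase of the endoplasmic reticulum that turns lysophosphatidic acid into phosphatidic acid (chromosome 2, 26593057 to 26604417, minus strand). Its levels were 217, 99.9 and 181 CPM with vehicle against 163, 180 and 232 CPM with insulin. Vehicle replicate 2 was the lowest library and insulin replicate 3 the highest. The log2 fold change of 0.21 ± 0.32 (SE; unadjusted p 0.538) took the opposite sign without vehicle replicate 2 (−0.051) and with an offset for GC content (−0.22). The longest Agpat2 transcript has 58.0% GC, the highest of the 9 genes. Genes within 1 percentage point of that GC content had a median log2 deviation of −1.15 in vehicle replicate 2, and Agpat2 was at −0.86 there.

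The lipins are phosphatidate phosphatases that supply diacylglycerol, and lipin 1 also acts in the nucleus as a coactivator of fatty acid oxidation genes. Lpin1 (chromosome 12, 16535669 to 16610966, minus strand) varied most of the 9 genes within IR insulin. Its levels were 113, 51.2 and 151 CPM with vehicle against 220, 115 and 36.0 CPM with insulin. Insulin replicate 1 was the highest and insulin replicate 3 the lowest of all 6 libraries, 6.11-fold apart within a single group. Its log2 fold change was 0.24 ± 0.63 (SE; unadjusted p 0.717), with an interval of the fold from 0.432 to 3.21. It was −0.088 without vehicle replicate 2 and −0.46 without insulin replicate 1.

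Lpin2 (chromosome 17, 71182560 to 71249817, plus strand) varied far less within IR insulin than Lpin1, with a coefficient of variation of 9.74% against 74.5%. Its levels were 263, 173 and 336 CPM with vehicle against 233, 209 and 192 CPM with insulin. Vehicle replicates 1 and 3 lay above and vehicle replicate 2 below all insulin libraries. The log2 fold change was −0.29 ± 0.29 (SE; unadjusted p 0.347, edgeR). Without vehicle replicate 2 it was −0.50 (unadjusted p 0.0293, adjusted p 0.891), so that Lpin2 was the 1 gene of the 9 past the study's criteria in that fit, beside 3.69% of all genes. Without vehicle replicate 3 it was −0.045 (unadjusted p 0.866). The ratio of Lpin2 to Lpin1 per kilobase was 1.84, 2.67 and 1.76 with vehicle and 0.837, 1.43 and 4.21 with insulin. By exon length Lpin1 thus exceeded Lpin2 in insulin replicate 1 and in no other library, whereas with the length of the longest transcript the ratio there was 1.05 and Lpin2 was the higher in all 6.

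Promoter windows from RefSeq (build GRCm38.p6, 250 bases before to 50 after a transcript start) were found for 6 of the 9 genes, 9 windows in all, and Lpin2 had 3 of them. They are shown because of the factors that bind such motifs. USF1, a regulator of lipogenic genes that the study measured as protein in other experiments, binds the E-box CACGTG. FOXO1 and CREB, the factors that carry the fasting response, bind GTAAACA and TGACGT. These motifs were chosen after the windows had been read, so their presence is not a test. Both strands were searched, the motif is in capitals, and 30 bases around each match are given on the strand of the gene.
Lpin2, E-box at 9 bases before the first start (chr17:71183511-71183540, plus strand): cggagctcgcgtCACGTGgccgggccgggg
Lpin2, FOXO motif at 138 bases before the third start (chr17:71204505-71204534, plus strand): tacctatcagtGTAAACAcatggtgcggcc
Mttp, CRE core on the opposite strand at 29 bases before the start (chr3:138143430-138143459, minus strand): cacttacggcttACGTCAtcggactgcgct
Gpam, CRE core on the opposite strand at 32 bases before the downstream start (chr19:55099492-55099521, minus strand): ccggcagccccgACGTCActgccgcgcgcc
The E-box was found in 1, the FOXO motif in 1 and the CRE core in 2 of the 9 windows. Of all 32851 windows of this length, 7.15%, 3.65% and 7.51% held them. A match describes the letters and is not a measured binding site, and the levels above are sums over all starts of a gene.

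Diacylglycerol is acylated to TAG by enzymes of separate families, DGAT1 and DGAT2, of which DGAT2 is known to use newly made fatty acids and DGAT1 to re-esterify preformed ones. Dgat2 (chromosome 7, 99153658 to 99182719, minus strand) was at 618, 679 and 452 CPM with vehicle against 451, 583 and 614 CPM with insulin. The groups covered nearly the same range, and the log2 fold change was −0.09 ± 0.27 (SE; unadjusted p 0.753). The 95% interval of the fold was 0.616 to 1.44. The sign turned without vehicle replicate 2 (0.041) or insulin replicate 1 (0.043), and the value was −0.61 with a GC offset (unadjusted p 0.163).

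Dgat1 (chromosome 15, 76502015 to 76511953, minus strand) was at 20.4, 15.1 and 30.2 CPM with vehicle against 19.6, 17.4 and 18.4 CPM with insulin. The insulin libraries lay inside the range of the vehicle libraries, whose highest value was replicate 3 and lowest replicate 2. The log2 fold change was −0.25 ± 0.29 (SE; unadjusted p 0.412, edgeR) and 0.056 without vehicle replicate 3. The GC offset moved it to −0.61 (unadjusted p 0.0142, adjusted p 0.930), which made Dgat1 the 1 gene of the 9 past the study's criteria in that fit, beside 3.55% of all genes. With a replicate block and a GC offset together it was −0.59 (unadjusted p 0.0375, adjusted p 0.989), beside 2.50% of all genes. Dgat2 exceeded Dgat1 per kilobase in every library, by 30.1, 44.6 and 14.8-fold with vehicle and by 22.8, 33.3 and 33.1-fold with insulin.

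Mogat1 encodes a monoacylglycerol acyltransferase, a side entry to diacylglycerol that is weakly used in normal mouse liver and known to increase in steatosis (chromosome 1, 78510991 to 78538173, plus strand). Its levels were 4.81, 3.50 and 0.382 CPM with vehicle against 3.24, 3.68 and 2.44 CPM with insulin. Vehicle replicate 3, with 8 reads, stood below all other libraries, which held 53 to 91 reads. Its log2 deviation from the median of the other 5 libraries was −2.91, and 0.613% of the genes tested were at least as low in that library. The log2 fold change between the groups was 0.11 ± 0.72 (SE; unadjusted p 0.878), with an interval of the fold from 0.342 to 3.42. It was −0.41 without vehicle replicate 3 and −0.021 without insulin replicate 2.

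**Figure D2:**
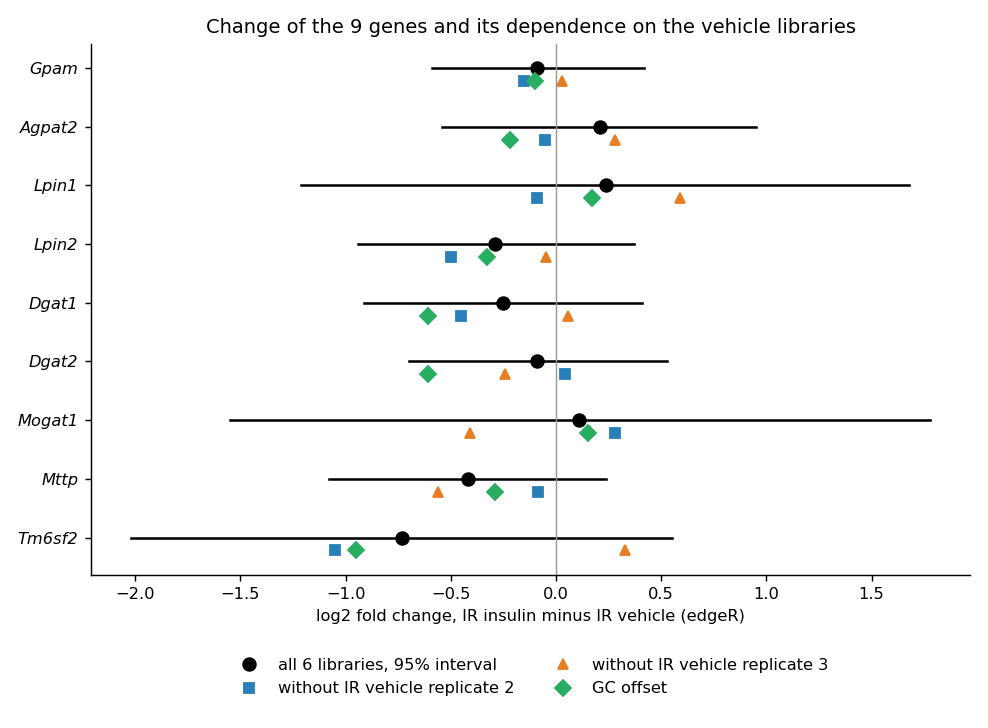
Log2 fold change of IR insulin over IR vehicle (x axis) for the 9 genes, with the 95% interval from all 6 libraries in black and the values without vehicle replicate 2 (blue), without vehicle replicate 3 (orange) and with a GC offset (green). All 9 intervals include 0, and the values for Dgat1, Mogat1, Gpam and Tm6sf2 lie on the other side of 0 without vehicle replicate 3.

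Mttp encodes the large subunit of the microsomal triglyceride transfer protein, which loads lipid onto apolipoprotein B (chromosome 3, 138089854 to 138144968, minus strand). Its transcription is known to be restrained by insulin through FOXO1. The levels were 215, 384 and 219 CPM with vehicle against 200, 191 and 221 CPM with insulin. Vehicle replicate 2 was far above the other 5 libraries, which lay within 191 to 221 CPM. The log2 fold change was −0.42 ± 0.29 (SE; unadjusted p 0.183, adjusted p 0.852), the smallest p of the 9 genes, and −0.085 without vehicle replicate 2. It stayed below 0 under all 15 alternatives, with unadjusted p values from 0.0954 to 0.657. At 45.9%, the GC content of its longest transcript was the lowest of the 9 genes. Genes within 1 percentage point of that had a median log2 deviation of 0.43 in vehicle replicate 2, and Mttp was at 0.84. The deviation there and the median of GC-matched genes lay on opposite sides of 0 for Dgat2 (0.22 and −0.89), Lpin2 (−0.43 and 0.05) and Gpam (−0.03 and 0.14). They were −1.17 and −0.02 for Lpin1, −0.38 and −0.93 for Dgat1, −0.26 and −0.80 for Tm6sf2, and 0.11 and 0.22 for Mogat1.

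Tm6sf2 encodes a membrane protein of the secretory pathway that is needed to enrich VLDL with lipid (chromosome 8, 70072924 to 70080066, plus strand). Its levels were 9.25, 10.1 and 41.4 CPM with vehicle against 12.1, 12.5 and 12.0 CPM with insulin. The insulin mice agreed to within 2.03% (coefficient of variation), the closest agreement among the 9 genes, while vehicle replicate 3 held 868 reads against 165 to 288 in the other libraries. Its log2 deviation there was 1.78, and 0.837% of the genes tested were at least as high in that library. Its log2 fold change was −0.73 ± 0.56 (SE; unadjusted p 0.223), and it was 0.33 (unadjusted p 0.190) without vehicle replicate 3. Vehicle replicates 1 and 2 lay below all 3 insulin libraries and vehicle replicate 3 above them.

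Vehicle replicate 3 thus held the highest value for 4 of the 9 genes (Gpam, Lpin2, Dgat1 and Tm6sf2) and the lowest for Mogat1. Vehicle replicate 2 held the highest value for Dgat2 and Mttp and the lowest for Agpat2, Lpin2 and Dgat1. Fasting genes also differed between these libraries. Igfbp1, a classical insulin-suppressed gene, was at 36.5, 3.99 and 266 CPM with vehicle against 14.0, 11.6 and 60.2 CPM with insulin. The gluconeogenic genes Pck1 (3543 CPM) and G6pc (365 CPM) were likewise highest in vehicle replicate 3, with 647 to 1786 CPM and 61.9 to 126 CPM elsewhere. The part of the fasting state of single mice in the values of the 9 genes was not tested.

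**Figure D3:**
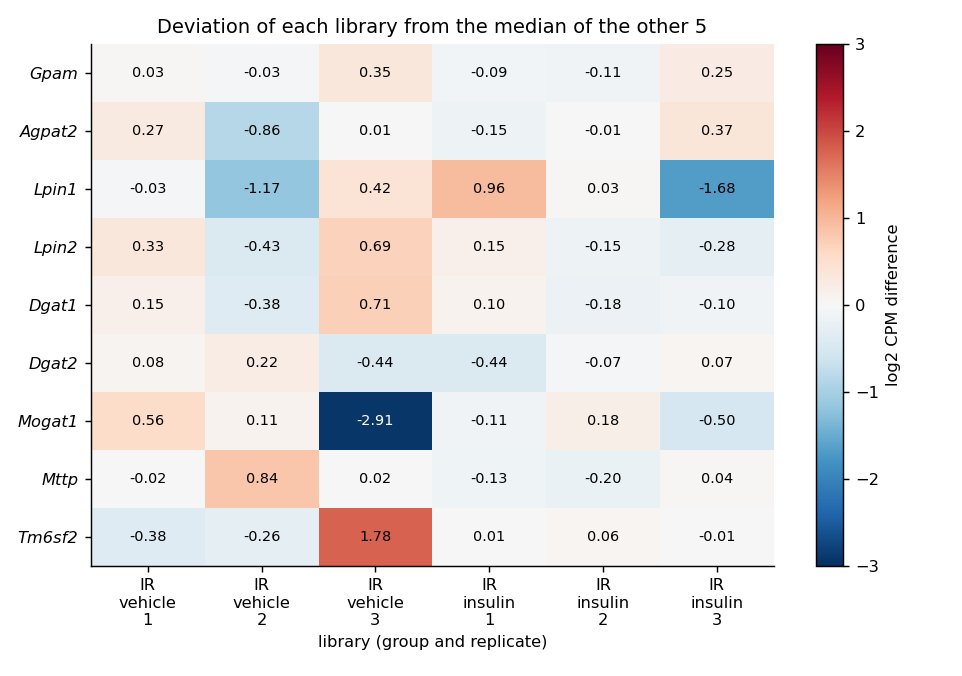
Difference in log2 CPM between each library (columns) and the median of the other 5 libraries, for the 9 genes (rows), with red for higher and blue for lower. The largest differences are Mogat1 (−2.91) and Tm6sf2 (1.78) in vehicle replicate 3 and Lpin1 in insulin replicate 3 (−1.68) and vehicle replicate 2 (−1.17).

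Adipose tissue expresses many of the same enzymes, so its markers were read beside them. Of 5 adipocyte markers, Adipoq, Lep, Plin1 and Retn had at most 2 reads in every library. Cfd, which encodes adipsin, was at 63.5, 26.6 and 0.143 CPM with vehicle against 154, 96.5 and 25.0 CPM with insulin. It was lowest in vehicle replicate 3, as was Mogat1, and highest in insulin replicate 1, as was Lpin1. Of the pancreatic acinar markers, 4 of 5 had at most 2 reads in every library, as had 3 of 4 markers of skeletal muscle, and the summed level of either list was at most 0.811 CPM. Summed erythroid markers (Hba-a1, Hbb-bs and Alas2) were at 589, 1181 and 395 CPM with vehicle against 325, 448 and 292 CPM with insulin, highest in vehicle replicate 2, where Mttp was highest too. Summed B cell markers were also highest there, at 10.9 CPM against 1.06 to 3.06 CPM elsewhere. Of that sum Ms4a1 gave 8.35 CPM (136 reads) and Cd79b 2.52 CPM (41 reads), while Cd79a had 0 reads in that library. Kupffer cell markers ran from 170 to 342 CPM and sinusoidal endothelial markers from 84.8 to 142 CPM. Enterocyte markers summed to 115 to 154 CPM, nearly all from Fabp2, which is also a liver transcript. The enterocyte markers Vil1, Sis and Lct had at most 3 reads in any library. The part of other cell types in the values of the 9 genes was not tested.

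Ratios within a library do not depend on its scaling, and none separated the groups. For the 5 ratios per kilobase of Dgat2 to Dgat1, Lpin2 to Lpin1, Agpat2 to Agpat3, Gpam to Gpat4 and Mttp to Tm6sf2, the two-sided exact permutation p ran from 0.4 to 1, and 3 against 3 libraries cannot give less than 0.1. Gpam, whose product is mitochondrial, was below Gpat4, the main glycerol-3-phosphate acyltransferase of the endoplasmic reticulum, in all 6 libraries, at 0.302, 0.248 and 0.207 of it with vehicle and 0.252, 0.260 and 0.515 with insulin. Agpat2 was above Agpat3, which acts on the same substrate, in all 6, by 3.75, 2.31 and 2.44-fold with vehicle and 2.39, 2.89 and 3.48-fold with insulin. Mttp exceeded Tm6sf2 by 7.11, 11.6 and 1.62-fold with vehicle and by 5.05, 4.68 and 5.64-fold with insulin. This ratio was lowest in vehicle replicate 3 and highest in vehicle replicate 2. A ratio does not remove a GC trend within a library, and the longest transcripts of Mttp and Tm6sf2 have 45.9% and 55.3% GC. The part of GC content in the ratios was not tested.

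**Figure D4:**
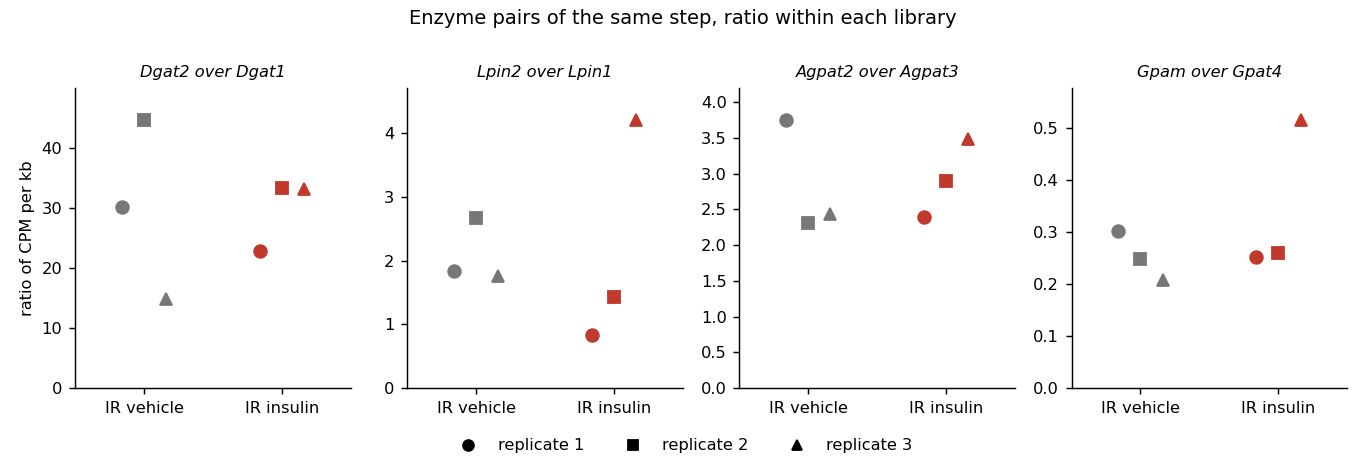
Ratio of CPM per kb of exon (y axis, starting at 0) between enzymes of the same step in each library, IR vehicle in grey and IR insulin in red, marker shapes for replicates 1 to 3. The order within each pair holds in all 6 libraries except for the lipins, where insulin replicate 1 lies at 0.837 (1.05 with the length of the longest transcript), and the groups overlap in each panel.

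The rest of the route gave few differences. Among 54 other genes of TAG and VLDL assembly and its regulation, 52 were tested, 0 passed an adjusted p of 0.05, and 2 passed the study's criteria, both lower with insulin, beside 1.86% of all genes in that direction. Gpat3, a further glycerol-3-phosphate acyltransferase of the endoplasmic reticulum, was at 18.8, 20.1 and 22.0 CPM with vehicle against 12.4, 12.4 and 16.2 CPM with insulin, without overlap. Its log2 fold change was −0.57 ± 0.22 (SE; unadjusted p 0.0335, adjusted p 0.852). The call was lost without vehicle replicate 3 (−0.51, unadjusted p 0.0698), without insulin replicate 1 (−0.50, 0.137) or 2 (−0.50, 0.134), with a replicate block (−0.58, 0.0640), without the filter on low counts (−0.54, 0.0720) and with vehicle replicate 1 alone (−0.45, 0.0677). Of its 3502 exon bases 1311 are shared with other annotated genes, and Gm42987 overlaps it on the same strand, so its reads are uncertain. Sar1b, the GTPase of the coat that carries VLDL out of the endoplasmic reticulum, was at 261, 618 and 344 CPM with vehicle against 241, 241 and 218 CPM with insulin, also without overlap. Its log2 fold change of −0.81 ± 0.34 (unadjusted p 0.0444, adjusted p 0.852) was −0.37 (unadjusted p 0.0790) without vehicle replicate 2, and its unadjusted p was 0.102, 0.0994 and 0.124 without insulin replicates 1, 2 and 3. It was −0.31 (unadjusted p 0.145) with voom and sample weights, −0.71 (unadjusted p 0.0763) with a replicate block, −0.52 (unadjusted p 0.0914) with the block and a GC offset, and −0.16 (unadjusted p 0.327) with vehicle replicate 1 alone. The count of 2 depended on the tool and on the libraries. With DESeq2, which added G6pc, it was 3 (3.79% of all genes). It was 0 without insulin replicate 1 or 2, where 0.727% and 1.05% of all genes passed, and 4 without insulin replicate 3 (0.875%). It was 7 without vehicle replicate 1 (9.81%), 5 without vehicle replicate 2 (3.69%) and 5 without vehicle replicate 3 (6.51%).

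By list, the other isoforms of the same steps had a median log2 fold change of −0.053 (8 of 9 genes tested, 4 higher and 4 lower). Besides Gpat3, Lpin3 (0.57 ± 0.35, unadjusted p 0.15) and Gpat4 (−0.48 ± 0.32, unadjusted p 0.170) had the smallest p. The 15 genes of VLDL assembly and export had a median of −0.24, with 2 higher and 13 lower, against 51.4% of all genes lower. Sec23a and Vmp1, which serve vesicle budding and lipid transfer in the endoplasmic reticulum, followed Sar1b at −0.67 ± 0.32 (unadjusted p 0.0722) and −0.37 ± 0.21 (unadjusted p 0.123). Sec23a was at 139, 267 and 123 CPM with vehicle, and its log2 fold change was −0.23 (unadjusted p 0.151) without vehicle replicate 2 and −0.87 (unadjusted p 0.0230) without vehicle replicate 3. With a GC offset Sar1b was at −0.55 (unadjusted p 0.0461), Sec23a at −0.39 (unadjusted p 0.0810) and Vmp1 at −0.20 (unadjusted p 0.314). Their longest transcripts have 42.8%, 42.4% and 43.5% GC, in a list that runs from 42.0% to 54.8%. The part of GC content in the lean of this list was not tested. Apob, the protein backbone of VLDL, was at 4756, 14425 and 4380 CPM with vehicle against 4707, 4662 and 4597 CPM with insulin. Vehicle replicate 2 alone stood out, as for Mttp, and the longest Apob transcript has 43.5% GC. The same library stood out for Gk (583 CPM, against 163 to 202 elsewhere) and Alb (138554 CPM, against 38255 to 72891 elsewhere). A high value there was thus not particular to genes of VLDL assembly.

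Genes that supply glycerol 3-phosphate had a median of −0.31 over 4 genes, of which 1 was higher. Gk, the glycerol kinase, was at −0.83 ± 0.47 (unadjusted p 0.113), Gpd1l at −0.45 ± 0.30 (unadjusted p 0.167) and Gpd1, the cytosolic glycerol-3-phosphate dehydrogenase, at 0.46 ± 0.40 (unadjusted p 0.284). The phospholipid branch, which draws on the same diacylglycerol, had a median of −0.24 over 8 genes, 2 higher and 6 lower. Selenoi, Cept1 and Chpt1, the terminal phosphotransferases of that branch, were at −0.52 ± 0.29, −0.53 ± 0.34 and −0.48 ± 0.31 (unadjusted p from 0.109 to 0.16). The 12 regulators had a median of −0.011, 5 higher and 7 lower, led by Foxo1 (−0.45 ± 0.25), Ppargc1a (−0.67 ± 0.43) and Nr3c1 (−0.56 ± 0.38) at unadjusted p values from 0.114 to 0.181. The 5 reference genes of insulin and fasting had a median of −0.93, and G6pc (−1.14 ± 0.52), Pck1 (−0.93 ± 0.54) and Igfbp1 (−1.84 ± 1.26) had unadjusted p values from 0.0579 to 0.182.

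The values of these genes turned on single vehicle libraries in both directions. Leaving out vehicle replicate 3 brought G6pc to −0.34 (unadjusted p 0.328), Pck1 to −0.31 (unadjusted p 0.528), Gpd1l to −0.11 (unadjusted p 0.661) and Ppargc1a to −0.17 (unadjusted p 0.652), and turned Igfbp1 to 0.49. The same step moved Gk to −1.14 (unadjusted p 0.0278), Chpt1 to −0.72 (unadjusted p 0.0209) and Nr3c1 to −0.83 (unadjusted p 0.0443). Leaving out vehicle replicate 2 brought Gk to −0.036 (unadjusted p 0.835), Chpt1 to −0.18 (unadjusted p 0.462), Cept1 to −0.17 (unadjusted p 0.532) and Lpin3 to 0.34 (unadjusted p 0.278), and turned Nr3c1 to 0.024. In that fit G6pc was at −1.44 (unadjusted p 0.0178) and Igfbp1 at −2.40 (unadjusted p 0.0364). Leaving out vehicle replicate 1 moved Lpin3 to 1.02 (unadjusted p 0.0114), Gpd1l to −0.67 (unadjusted p 0.0452), Foxo1 to −0.64 (unadjusted p 0.0233) and G6pc to −1.39 (unadjusted p 0.0447), and Foxo1 was at −0.32 (unadjusted p 0.264) without vehicle replicate 3. Leaving out insulin replicate 3 moved Selenoi to −0.78 (unadjusted p 0.0373), Pck1 to −1.47 (unadjusted p 0.0376) and G6pc to −1.46 (unadjusted p 0.0487), while Selenoi was at −0.33 (unadjusted p 0.223) without vehicle replicate 2. With a GC offset Chpt1 was at −0.10 (unadjusted p 0.622) and Lpin3 at 0.26 (unadjusted p 0.385).

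**Figure D5:**
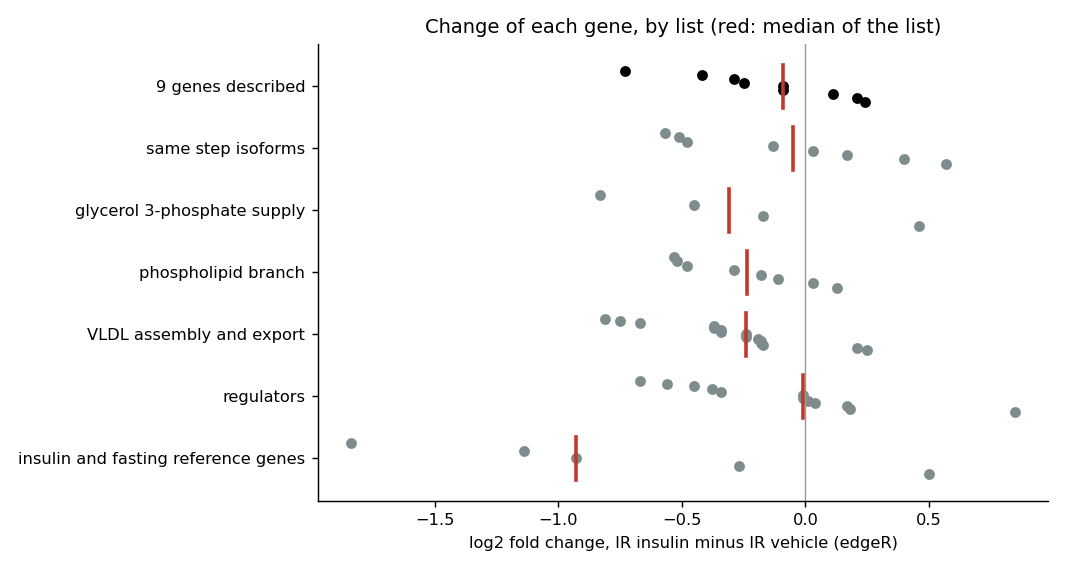
Log2 fold change of IR insulin over IR vehicle (x axis) for each gene tested, by list (y axis), with a red line at the median of each list and the 9 genes in black. The medians run from −0.93 for the 5 reference genes to −0.011 for the regulators, and the 9 genes lie between −0.73 and 0.24.

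Other transcripts followed the 9 genes closely across the 6 libraries, which is a description of these libraries. Each one named was picked as the closest among the 13377 genes tested. How close the best match of any other gene is over 6 libraries was not tested. Lpin2 was most like Insig2, which holds SREBP in the endoplasmic reticulum and is known to be suppressed by insulin (Pearson's r 0.994 of log2 CPM over 6 libraries), at 286, 193 and 402 CPM with vehicle against 253, 234 and 209 CPM with insulin. Lpin1 was most like Lepr, the leptin receptor (r 0.98), at 14.3, 6.51 and 35.3 CPM with vehicle against 55.6, 26.8 and 2.35 CPM with insulin. Only 7 genes passed an r of 0.95 with Lpin1, the fewest among the 9 genes, against 560 with Mttp. Mogat1 was most like Gbp4, an interferon-induced GTPase, which was at 1.72 CPM in vehicle replicate 3 and at 12.7 to 26.1 CPM elsewhere (r 0.994). The closest transcripts for the rest were Entpd8 for Gpam, Med27 for Agpat2, Syngr2 for Dgat1, Tubd1 for Dgat2, Gtf2h2 for Mttp and Tmem234 for Tm6sf2, with r from 0.990 to 0.997.

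Exons of Mttp, Agpat2 and Mogat1 share 589, 64 and 200 bases with annotated genes of the other strand, as do those of Cept1 (776), Chpt1 (660), Sec23a (431), Gpd1 (384) and Gk (84). Foxo1 shares 674 and Vmp1 92 exon bases with other genes, and each has an overlapping gene on its own strand. Whether reads were counted by strand is not given in the sources used here, so these counts may include reads of those genes.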

How the data were processed

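RNA of 6 livers (3 IR insulin, 3 IR vehicle; groups and replicate numbers from the labels) was sequenced by the authors from NEBNext Ultra RNA libraries on an Illumina HiSeq and aligned to mouse build 38 (mm10) with Bowtie2 2.2.3 (version as in the submitters' processing notes). The deposited values are raw read counts per gene for each library. The counting program, its annotation and its strand setting are not given in the sources used here, and an aligner without spliced alignment may lose reads across exon junctions.

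Genes kept by filterByExpr (minimum count 10, minimum total 15) were tested with edgeR 4.0.16 (TMM, glmQLFit and glmQLFTest, R 4.3.3, no covariate), adjusted by Benjamini-Hochberg over 13377 genes. Each SE and 95% interval was computed from a gene's F value. The study used DESeq2, run here as an alternative (1.42.0), beside limma 3.58.1 voom. Positive values mean higher with insulin. The fits were tested on simulated counts. Lengths, overlaps and GC content came from GENCODE mouse release M21, which held 99.8% of the listed genes. The GC offset was a loess curve (span 0.5) per library. Log2 CPM used a prior count of 2. The biological coefficient of variation was 0.357.

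The 9 genes and all lists were chosen with earlier results of these data known. Named besides the 9 are the 3 genes with the smallest p of each other list, any with an unadjusted p under 0.05, and the most similar transcript of each of the 9. Apob and markers were named after their values were seen. A result for 1 listed gene is not reported here. Alternatives were RLE and upper-quartile factors, no filter, DESeq2, voom with sample weights, a GC offset, a replicate block, and each library left out. IR vehicle replicate 1 alone against IR insulin, and ratios with the length of the longest transcript, were added after the data were seen.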

Additional observations from a re-analysis of the deposited data

How the results depend on the processing

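Over 15 alternatives, 118 of 135 fits of the 9 genes kept the sign of the log2 fold change and 17 did not, and no gene of the 9 had an adjusted p under 0.527. Lpin2 and Mttp kept their sign in all 15, though with values near 0. Leaving out single libraries moved the log2 fold change of Lpin2 from −0.50 to −0.045, Mttp from −0.56 to −0.085, Gpam from −0.19 to 0.031, Agpat2 from −0.051 to 0.45, Lpin1 from −0.46 to 0.68, Dgat1 from −0.45 to 0.056, Dgat2 from −0.24 to 0.043, Mogat1 from −0.41 to 0.71, Tm6sf2 from −1.08 to 0.33, Nr3c1 from −0.83 to 0.024 and Igfbp1 from −2.99 to 0.49. It moved the count past the study's criteria from 99 to 1349 among all genes, from 0 to 1 among the 9 and from 0 to 7 among the other pathway genes. With vehicle replicate 1 alone, where its spread is assumed to be that of the insulin group, Gpam was at 0.022, Agpat2 at −0.17, Mogat1 at −0.61, Tm6sf2 at 0.40, Lpin3 at −0.048, Gpd1l at 0.14, Foxo1 at 0.061, Ppargc1a at 0.13 and Pck1 at 0.076, all with the sign turned. Agpat2 turned to −0.13 with voom, to −0.22 with a GC offset and to −0.22 with a replicate block and a GC offset. Without the filter on low counts 742 genes passed the study's criteria, of 23040 tested, and with voom 213 did, beside 383. With a GC offset 1 of the 9 and 4 other pathway genes passed, as with a replicate block and a GC offset together (1 and 4). With the replicate block alone 321 of all genes, 0 of the 9 and 2 pathway genes passed, Pck1 and G6pc in place of Gpat3 and Sar1b. The replicate numbers were not taken as pairs in the main fit, since the labels name no pairs. Deviations of same-numbered libraries from their group means correlated at −0.039, 0.0688 and 0.0174. Those of differently numbered libraries correlated at −0.11 to 0.0891. With 3 libraries per group these values cannot decide whether libraries were paired. The causes of these changes were not tested. The spread between libraries, mostly in the vehicle group but for Lpin1 more in the insulin group, limits what could be seen. For Mogat1 so does its low read number, with 8 reads in vehicle replicate 3, a library of 21614773 counts in total.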
